A study of Homo sapiens with 20 samples.

Results

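The genes described here are 51 genes of the G1/S transition and of DNA replication. They were taken by gene symbol from the probe sets of Affymetrix Clariom S human arrays, with 1 probe set per gene. All 51 were found among the 17687 genes tested. Of the members 41 lay above the brightest of 23 background control probe sets on each of the 20 arrays. The other 10 lay below it on at least 1 array, CCNE2 on both KDM4B hairpin arrays among them. The lowest value of any member was 6.87 on the log2 signal scale used throughout, against array medians of the background probe sets of 3.64 to 4.01. The total RNA came from Rh30 and Rh41, established human alveolar rhabdomyosarcoma cell lines that carry the PAX3-FOXO1 fusion gene. KDM4 enzymes are histone demethylases that act on lysines of H3, and QC6352 inhibits this family.

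The groups were Rh30 with a short hairpin RNA against KDM4B (shKDM4B) and with a control hairpin (shControl), 2 arrays each at 72 h. Rh30 with a small interfering RNA against KDM4C (siKDM4C) and with a control siRNA (siControl) made up 2 arrays each, also at 72 h. Rh30 treated with 200 nM QC6352 for 48 h and Rh30 in DMSO, its solvent, had 3 arrays each, and Rh41 had the same 2 groups with 3 arrays each. The labels call the arrays of a group biological replicates and do not give the number or sequence of the hairpins or siRNAs. The p-values measure the spread between these arrays, and their small number limits the precision.

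Before a cell divides, cyclin E with CDK2 drives it from G1 into S phase, and E2F transcription factors switch on the genes that S phase needs. In G1 the origin recognition complex, CDC6 and CDT1 load the MCM2 to MCM7 helicase onto DNA. In S phase CDC45 and the GINS complex activate that helicase, primase and DNA polymerases copy the strands behind it, and PCNA, loaded by the RFC complex, clamps the polymerases to DNA. Many of these genes are transcribed in a burst around the G1/S boundary. Their RNA level in a bulk sample therefore cannot tell a change in the share of cells near S phase from a change of RNA per cell.

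For 10 Rh30 arrays the labels conflict. By title, source and treatment these are the 4 siRNA arrays and the 6 DMSO and QC6352 arrays of Rh30. Their sample names call both siControl arrays and siKDM4C replicate 1 DMSO arrays, and siKDM4C replicate 2 and DMSO replicates 1 and 2 QC6352 arrays. Likewise DMSO replicate 3 and QC6352 replicate 1 are named siControl, and QC6352 replicates 2 and 3 siKDM4C. The groups below follow the titles, and for each comparison the member calls left by sample name are given. The hairpin arrays and the Rh41 arrays carry no such conflict. The title of siKDM4C replicate 2 reads shRNA, where its other labels read siRNA.

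The target genes were read on all arrays of their experiments. KDM4B measured 6.01 and 6.15 on the shKDM4B arrays, against 6.74 and 7.30 on the shControl arrays. KDM4C measured 6.25 and 6.32 on the siKDM4C arrays, against 6.48 and 6.54 on the siControl arrays. By sample name it measured 6.42 and 6.69 under siKDM4C, against 6.12 and 6.52 under siControl. Each of these values lay below the brightest background control probe set of its array, so they are a weak check of the labels. For the same reason they do not establish how far KDM4B or KDM4C was knocked down. The median signal was 6.72 to 6.75 on the siRNA arrays, 6.95 to 6.99 on the other Rh30 arrays and 7.22 to 7.25 on the Rh41 arrays. Of 11 muscle and rhabdomyosarcoma markers 10 were found, and 8 of them, MYOD1 and DES included, lay above background on every array. None of the 17 epithelial, blood, endothelial and fibroblast markers found did so on every array. KRT8, PECAM1, COL1A1 and PDGFRB lay above it on some arrays, and the others on none. KRT8 measured 7.70 to 8.65 over all arrays. MYOG, a muscle regulator, measured 9.03 to 9.34 on the 3 Rh30 arrays titled QC6352 and 11.26 to 11.82 on the other Rh30 arrays. The part of MYOG in the results on those arrays was not tested. By sample name MYOG measured 11.31 to 11.76 in Rh30 under QC6352 and 11.31 to 11.47 in DMSO. It measured 9.06 and 11.82 on the arrays named siControl and 9.03 and 9.34 on those named siKDM4C. The median signal by sample name was 6.72 to 6.99 under QC6352, 6.73 to 6.75 in DMSO and 6.95 to 6.99 on those siRNA arrays. Which labels are right was not tested.

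The promoters of the members hold E2F motifs in most cases. In RefSeq promoter windows of GRCh38.p14, from 250 bases before to 50 bases after the gene start, 44 of the 51 members matched by symbol. MCM4, MCM5, GINS4, POLD3, CCNE2, CDK2 and E2F8 were not matched. An E2F core (TTCCCGC or TTGGCGC or TTCGCGC or TTGCCGC, either strand) was present in 32 of the 44, or 72.7%, against 13.1% of all 27305 promoters scanned. The NF-Y box CCAAT, on either strand, was present in 56.8% of the matched members and in 35.7% of all promoters. The list was chosen by gene function, and E2F factors switch on genes that S phase needs. These shares therefore describe the list and carry no test. The 4 promoters printed here belong to members that recur in the results. MCM2 and MCM6 are subunits of the replicative helicase and fell under QC6352 in both lines, whereas CDC25A and CLSPN rose. CLSPN fell with the KDM4B hairpin. Each sequence runs 5′ to 3′ on the gene's strand through 20 bases after the start, with capitals for E2F cores and CCAAT boxes, merged where matches overlap.
MCM2 (chr3:127598161-127598430, plus strand): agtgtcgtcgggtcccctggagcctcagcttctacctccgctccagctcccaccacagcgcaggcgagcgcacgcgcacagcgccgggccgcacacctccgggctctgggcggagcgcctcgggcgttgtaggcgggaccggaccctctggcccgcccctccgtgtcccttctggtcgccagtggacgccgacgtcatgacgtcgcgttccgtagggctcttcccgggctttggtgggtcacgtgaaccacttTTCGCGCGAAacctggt
MCM6 (chr2:135876424-135876693, minus strand): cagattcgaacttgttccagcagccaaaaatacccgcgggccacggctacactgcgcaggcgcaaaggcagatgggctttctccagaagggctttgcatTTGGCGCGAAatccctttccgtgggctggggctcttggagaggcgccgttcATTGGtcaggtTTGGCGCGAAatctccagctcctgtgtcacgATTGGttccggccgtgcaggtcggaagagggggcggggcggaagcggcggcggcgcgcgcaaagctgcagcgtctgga
CDC25A (chr3:48188398-48188667, minus strand): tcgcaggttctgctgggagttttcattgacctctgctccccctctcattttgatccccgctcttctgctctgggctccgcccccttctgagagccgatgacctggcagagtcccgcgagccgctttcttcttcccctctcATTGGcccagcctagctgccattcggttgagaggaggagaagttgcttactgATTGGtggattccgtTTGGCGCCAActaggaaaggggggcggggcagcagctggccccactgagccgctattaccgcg
CLSPN (chr1:35769959-35770228, minus strand): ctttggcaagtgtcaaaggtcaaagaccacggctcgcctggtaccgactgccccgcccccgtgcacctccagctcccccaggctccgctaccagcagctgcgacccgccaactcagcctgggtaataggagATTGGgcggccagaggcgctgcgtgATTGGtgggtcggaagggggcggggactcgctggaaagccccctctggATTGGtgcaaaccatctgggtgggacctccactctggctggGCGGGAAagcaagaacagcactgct
The MCM2 window holds 2 overlapping E2F cores and no CCAAT box, and that of MCM6 holds 4 E2F cores in 2 overlapping pairs with 2 CCAAT boxes. CDC25A has 2 overlapping E2F cores and 2 CCAAT boxes, and CLSPN has 1 E2F core and 3 CCAAT boxes. An E2F core stood in the promoter of falling and of rising members alike. Under QC6352 in Rh30 it was present in 6 of 6 falling members with a promoter, in 14 of 19 rising members and in 12 of 19 that did not pass the test. A match is a string of letters and does not show binding.

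With the KDM4B hairpin, 15 of 51 members fell and none rose, at an adjusted p under 0.05 by limma with Benjamini-Hochberg adjustment over all genes tested. Over all genes 6.31% fell, 5.26% rose and 11.6% passed the test in either direction. The median log2 difference, hairpin minus control, was -0.23 over the members and 0.03 over all genes, where a log2 difference of 1 is a 2-fold change. The fallen members came from most steps of replication: 3 of 7 G1/S drivers, 3 of 8 polymerase and primase subunits, 2 of 4 chromatin genes, 2 of 4 fork signalling genes and 2 of 6 helicase activators. No MCM2 to MCM7 subunit and no clamp or clamp loader gene passed the test.

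USP1, the deubiquitinase that acts on PCNA and FANCD2, measured 9.26 and 9.19 on the shKDM4B arrays, against 10.47 and 9.96 on the shControl arrays. It had the largest fall among the members, -0.99 ± 0.16 (log2 difference ± SE, n = 2 each, limma adjusted p = 0.000393). CLSPN encodes claspin, which passes the replication stress signal from ATR to CHK1. It measured 7.99 and 8.05 with the KDM4B hairpin, against 9.08 and 8.84 with the control hairpin, a difference of -0.94 ± 0.13 (n = 2 each, limma adjusted p = 0.000115). The hairpin and control arrays did not overlap for either gene. Lack of overlap was a condition for naming the members picked by size in each comparison of 2 groups, so it adds no support here or below. Many members that did not pass the test had no overlap either, among them MCM2 to MCM7, ORC1, RFC2, FEN1, E2F2 and CDK2. The share of all genes without overlap was not counted.

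Of the G1/S drivers, cyclin E2 (CCNE2) measured 7.82 and 7.66 with the KDM4B hairpin, against 8.64 and 8.61 with the control hairpin. E2F1, the activating E2F factor, measured 9.06 and 9.23 under shKDM4B, against 9.94 and 10.08 under shControl. Their log2 differences were -0.89 ± 0.16 (limma adjusted p = 0.000987, n = 2 each) and -0.87 ± 0.14 (limma adjusted p = 0.000271, n = 2 each). All 4 arrays were in order for both genes, with the hairpin arrays lower. Both shKDM4B values of CCNE2 lay below the brightest background control probe set of their arrays, so that the size of its difference is uncertain. E2F8, a repressive E2F factor, fell by 0.51. Cyclin E1 (CCNE1), the phosphatase CDC25A, which activates CDK2, CDK2 itself and E2F2 did not pass the test, with log2 differences from -0.26 to 0.01.

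Among the enzymes that start and extend strands, the primase subunit PRIM1 fell by 0.80. The polymerase alpha subunits POLA2 and POLA1 fell by 0.69 and 0.53. Primase and polymerase alpha act as 1 complex that lays the first nucleotides of each Okazaki fragment. The second primase subunit, PRIM2, had a log2 difference of 0.01. All 4 of its arrays lay below the brightest background control probe set, so that a change might not show. The subunits of polymerases epsilon and delta (POLE, POLE2, POLD1 and POLD3) lay between -0.50 and -0.02 without passing the test. TYMS, thymidylate synthase, fell by 0.59, and LIG1, which seals Okazaki fragments, fell by 0.49 with all 4 arrays below that background level. The large and small subunits CHAF1A and CHAF1B of CAF-1, which deposits new histones behind the fork, fell by 0.35 and 0.59.

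MCM10 and CDC45, both needed to activate the helicase, fell by 0.45 and 0.42, the shKDM4B values of MCM10 again below that level, and geminin (GMNN), which inhibits CDT1, fell by 0.47. ORC1, a subunit of the origin recognition complex, had the highest log2 difference of the 51 members, 0.30 ± 0.11, and did not pass the test (limma adjusted p = 0.0961). The 6 MCM subunits had log2 differences from -0.35 for MCM6 to 0.13 for MCM2. Leaving out shControl replicate 1 or shKDM4B replicate 1 left 8 of the 15 calls, leaving out shKDM4B replicate 2 left 9, and leaving out shControl replicate 2 left 10. USP1, CLSPN, CCNE2, E2F1, PRIM1, POLA2 and TYMS stayed past the threshold in all 4 of these fits. POLA1 and CHAF1B were lost in 2, GMNN, CHAF1A and E2F8 in 3, and MCM10, CDC45 and LIG1 in all 4. Grouping Rh30 by sample name leaves the hairpin arrays in place and changes the spread shared with the other arrays. It left 6 of the 15 calls (USP1, CLSPN, PRIM1, POLA2, TYMS and CHAF1B), with limma adjusted p = 0.134 for CCNE2 and 0.0715 for E2F1.

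Of 38 further replication factors 15 fell and 2 rose with the KDM4B hairpin, and of 30 further G1/S control genes 1 fell and 6 rose. RRM2B, the p53-inducible subunit of ribonucleotide reductase, measured 5.97 and 5.88 under shKDM4B, against 7.07 and 7.47 under shControl, a log2 difference of -1.34 ± 0.17 (n = 2 each, limma adjusted p = 2.68e-05). TOPBP1, which helps to load CDC45 and to activate ATR, fell by 0.99. E2F5, a repressive E2F factor, had a log2 difference of 1.06 (limma adjusted p = 0.00277). The arrays of the 2 groups did not overlap for any of these 3 genes. RRM2B and E2F5 lay below the brightest background control probe set on all 4 arrays, so that the size of both differences is uncertain.

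**Figure D1:**
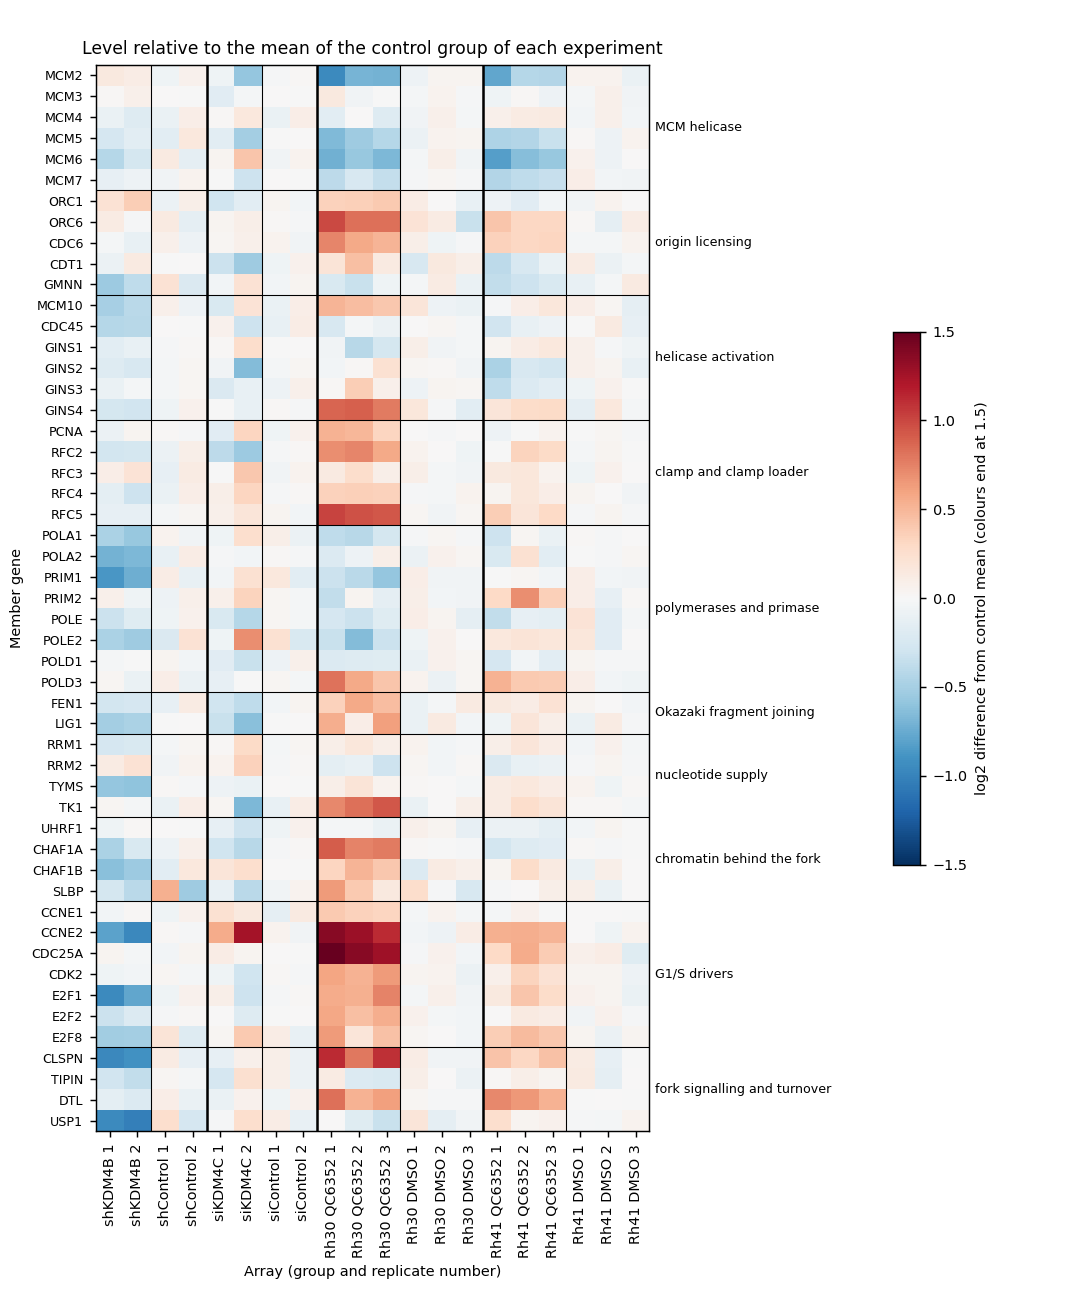
Log2 difference of each member (rows, grouped by role) on each array (columns) from the mean of the control arrays of the same experiment, with red for higher and blue for lower and colours ending at 1.5. MCM2, MCM5, MCM6 and MCM7 are blue and CCNE2, CLSPN and DTL red on the QC6352 arrays of both lines, while USP1, CLSPN, CCNE2, E2F1 and PRIM1 are blue on the shKDM4B arrays.

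With the KDM4C siRNA, 1 of 51 members passed the test, CCNE2, which rose. Over all genes 0.458% passed in either direction and 0.266% rose. At an unadjusted p under 0.05 there were 10 of 51 members, beside 2446 of all 17687 genes. CCNE2 measured 8.53 and 9.23 on the siKDM4C arrays, against 8.03 and 7.93 on the siControl arrays, a log2 difference of 0.90 ± 0.16 (n = 2 each, limma adjusted p = 0.0156). The groups did not overlap, but the siKDM4C arrays lay further apart than the siControl arrays.

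This call rested on single arrays. It was lost without siKDM4C replicate 2 (0.55, limma adjusted p = 0.198), without siControl replicate 1 (0.95, limma adjusted p = 0.0876) and without siControl replicate 2 (0.85, limma adjusted p = 0.167). By sample name the log2 difference was 0.46 (limma adjusted p = 0.55), and 0 of the 51 members passed the test by limma.

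The clamp loader subunit RFC2 measured 9.01 and 8.85 under siKDM4C, against 9.38 and 9.41 under siControl. Its log2 difference of -0.47 ± 0.12 did not pass the test (n = 2 each, limma adjusted p = 0.0822). CHAF1A measured 8.61 and 8.49 under siKDM4C, against 8.89 and 8.93 under siControl, a difference of -0.36 ± 0.11 that did not pass either (limma adjusted p = 0.127, n = 2 each). The 2 siKDM4C arrays differed from each other in other members. MCM2 measured 8.89 on replicate 1 and 8.37 on replicate 2, against 8.93 and 8.97 under siControl. TK1, thymidine kinase, measured 10.82 and 10.12 under siKDM4C, against 10.68 and 10.91 under siControl. Without siKDM4C replicate 1, 9 members passed the test: CCNE2, MCM2, MCM5, GINS2, RFC2, POLE2, LIG1, TK1 and CHAF1A. None of the 38 further replication factors and none of the 30 further G1/S control genes passed the limma test. At an unadjusted p under 0.05 there were 10 and 6, beside 2446 of all 17687 genes.

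Under QC6352 in Rh30, 31 of 51 members passed the test: 24 rose and 7 fell. Over all genes 36.3% passed, 19.9% higher and 16.5% lower. The median log2 difference was 0.26 over the members and 0.05 over all genes. The roles moved in different directions. All 7 G1/S drivers, 4 of 5 clamp and clamp loader genes and both genes of Okazaki fragment joining rose, while 4 of 6 MCM subunits and 3 of 8 polymerase and primase subunits fell. These counts hold for the groups by title. By sample name 1 member, POLE2, passed the test, in the other direction, and none of the 31 calls remained.

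CDC25A measured 9.91, 9.68 and 9.57 on the 3 Rh30 arrays titled QC6352, against 8.29, 8.37 and 8.26 on the Rh30 DMSO arrays. This was the largest rise among the members, 1.41 ± 0.11 on the log2 scale (n = 3 each, limma adjusted p = 3.76e-09). CCNE2 measured 9.85, 9.77 and 9.60 in QC6352, against 8.44, 8.41 and 8.60 in DMSO, a log2 difference of 1.26 ± 0.13 (n = 3 each, limma adjusted p = 2.92e-07). The treated and DMSO arrays did not overlap for either gene. The other G1/S drivers rose less: E2F1 by 0.61, CDK2 by 0.58, E2F2 by 0.53, E2F8 by 0.42 and CCNE1 by 0.35.

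CLSPN measured 9.88, 9.55 and 9.84 on the QC6352 arrays, against 8.86, 8.70 and 8.70 on the DMSO arrays. RFC5, a small subunit of the clamp loader, measured 11.38, 11.33 and 11.31 in QC6352, against 10.41, 10.32 and 10.40 in DMSO. Their log2 differences were 1.00 ± 0.11 (n = 3 each, limma adjusted p = 5.94e-07) and 0.97 ± 0.08 (n = 3 each, limma adjusted p = 1.8e-08). All treated arrays were above all DMSO arrays for both. Of the other loader subunits RFC2 and RFC4 rose by 0.66 and 0.35, and RFC3 had a log2 difference of 0.16 that did not pass the test. PCNA, the clamp itself, rose by 0.45.

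The helicase subunits moved the other way. MCM2 measured 8.48, 8.74 and 8.73 in QC6352, against 9.35, 9.47 and 9.47 in DMSO, a log2 difference of -0.78 ± 0.13 (n = 3 each, limma adjusted p = 5.19e-05). MCM6 measured 8.06, 8.21 and 8.10 on the treated arrays, against 8.74, 8.86 and 8.72 on the DMSO arrays (-0.66 ± 0.11, n = 3 each, limma adjusted p = 9.08e-05). MCM5 measured 9.70, 9.83 and 9.93 under QC6352, against 10.28, 10.41 and 10.40 under DMSO (-0.54 ± 0.11, n = 3 each, limma adjusted p = 0.000417). The treated and DMSO arrays did not overlap for these 3 subunits. MCM7 fell by 0.33, while MCM3 and MCM4 had log2 differences of 0.03 and -0.11 and did not pass the test. Protein was not measured.

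PRIM1 measured 8.69, 8.59 and 8.42 under QC6352, against 9.10, 8.95 and 8.95 under DMSO, a log2 difference of -0.44 ± 0.11 (n = 3 each, limma adjusted p = 0.00371). POLA1 fell by 0.35 and POLE2, an accessory subunit of polymerase epsilon, by 0.44. The POLE2 call (limma adjusted p = 0.0494) was lost on leaving out any of the 6 arrays. POLD3, an accessory subunit of polymerase delta, rose by 0.60, the only one of the 8 polymerase and primase subunits that rose. POLA2, PRIM2, POLE and POLD1 had log2 differences from -0.25 to -0.07 and did not pass the test. The treated values of PRIM2 lay below the brightest background control probe set of their arrays.

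Of the 5 licensing genes 3 rose: ORC6 by 0.88, CDC6 by 0.60 and ORC1 by 0.37. CDT1, the loader of the helicase, and its inhibitor GMNN did not pass the test, with log2 differences of 0.26 and -0.21. Of the helicase activators GINS4 rose by 0.85 and MCM10, whose DMSO values lay below the brightest background control probe set, by 0.46, whereas CDC45, GINS1, GINS2 and GINS3 lay between -0.25 and 0.16. TK1 rose by 0.83, CHAF1A by 0.81, CHAF1B by 0.41, FEN1, the flap nuclease of Okazaki fragments, by 0.46, and LIG1 by 0.42, its DMSO values likewise below that level. DTL, the substrate receptor through which CUL4 destroys CDT1, rose by 0.65. RRM1 and RRM2, the main subunits of ribonucleotide reductase, TYMS, the DNA methylation adaptor UHRF1, the histone mRNA binder SLBP, TIPIN and USP1 did not pass the test, with log2 differences from -0.19 to 0.39.

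Of the 38 further replication factors 14 rose and 6 fell in Rh30, and of the 30 further G1/S control genes 11 rose and 7 fell. RPA3, the smallest subunit of the single-strand binding protein RPA, measured 4.91, 4.90 and 4.39 in QC6352, against 7.74, 7.44 and 7.38 in DMSO, a log2 difference of -2.79 ± 0.16 (n = 3 each, limma adjusted p = 1.01e-10). The nuclease and helicase DNA2 fell by 1.44 (limma adjusted p = 1.4e-06). CDKN1A, which encodes the CDK inhibitor p21, rose by 1.23 (limma adjusted p = 2.45e-07). On the 3 treated and the 3 DMSO arrays RPA3 and DNA2 lay below the brightest background control probe set, so that the size of their falls is uncertain.

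**Figure D2:**
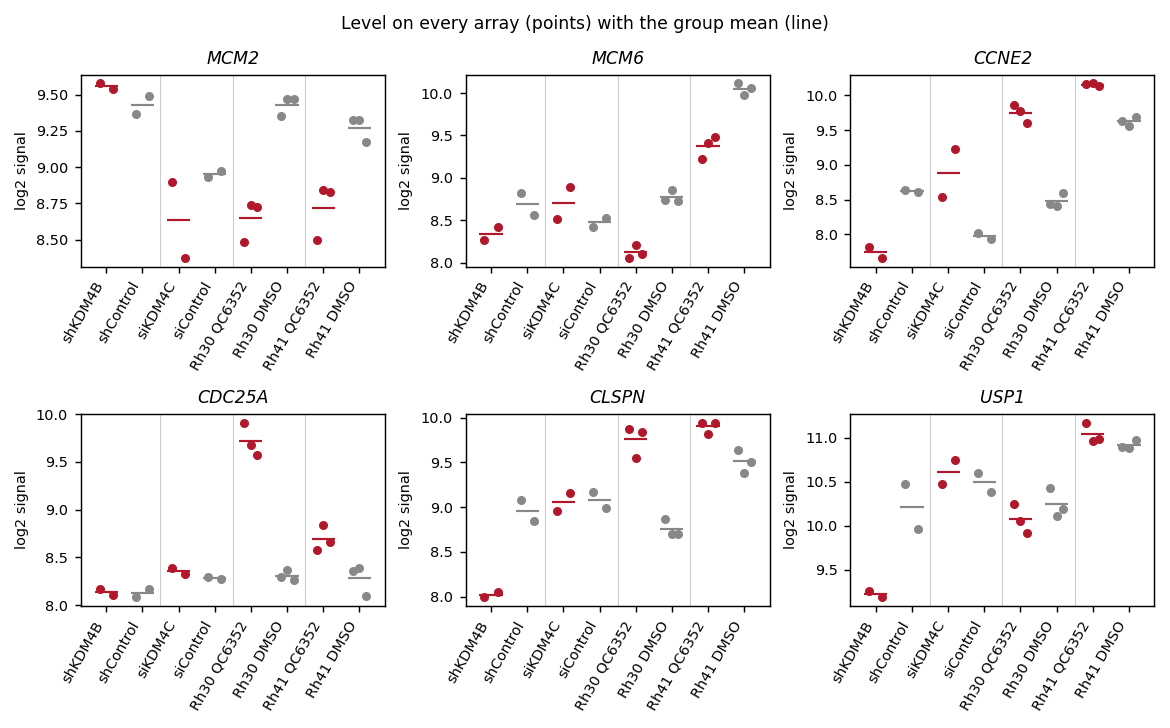
Log2 signal (vertical axes, each gene on its own range) of 6 members on each array (points) with the group mean (lines), QC6352 or knockdown in red beside its control in grey. MCM2 and MCM6 sit lower in QC6352 than in DMSO in both lines and CCNE2, CDC25A and CLSPN higher, while CCNE2, CLSPN and USP1 sit lower in shKDM4B than in shControl.

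In Rh41, whose labels carry no conflict, 13 of 51 members passed the test under QC6352: 9 rose and 4 fell. Over all genes 19.7% passed, 10.9% higher and 8.8% lower. The median log2 difference was 0.09 over the members and 0.02 over all genes. The 4 members that fell were again MCM2, MCM5, MCM6 and MCM7. With Rh30 grouped by sample name, which changes the shared spread alone, 2 of the 13 calls were left, DTL and MCM6.

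MCM6 measured 9.22, 9.41 and 9.49 on the Rh41 QC6352 arrays, against 10.12, 9.98 and 10.06 on the Rh41 DMSO arrays (-0.68 ± 0.11, n = 3 each, limma adjusted p = 0.000202). MCM2 measured 8.50, 8.84 and 8.83 in QC6352, against 9.32, 9.32 and 9.17 in DMSO, a log2 difference of -0.55 ± 0.13 (n = 3 each, limma adjusted p = 0.00365). MCM5 measured 9.27, 9.29 and 9.39 in treated Rh41, against 9.75, 9.65 and 9.78 in DMSO (-0.41 ± 0.11, n = 3 each, limma adjusted p = 0.00923). The treated arrays of Rh41 were below all DMSO arrays for each of these. MCM7 measured 10.77, 10.84 and 10.87 in QC6352, against 11.31, 11.18 and 11.16 in DMSO, a difference of -0.39 ± 0.09 (n = 3 each, limma adjusted p = 0.00456). MCM3 and MCM4, at -0.04 and 0.11, did not pass the test, as in Rh30.

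DTL rose most among the members in Rh41. It measured 11.16, 11.09 and 10.96 in QC6352, against 10.44, 10.45 and 10.44 in DMSO, a log2 difference of 0.63 ± 0.10 (n = 3 each, limma adjusted p = 0.000114). CCNE2 measured 10.16, 10.17 and 10.13 in treated Rh41, against 9.62, 9.56 and 9.68 in DMSO, a difference of 0.53 ± 0.13 (n = 3 each, limma adjusted p = 0.00656). Both had treated and DMSO arrays that did not overlap.

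PRIM2 measured 8.53, 8.93 and 8.59 under QC6352, against 8.34, 8.11 and 8.25 under DMSO, a log2 difference of 0.45 ± 0.12 (n = 3 each, limma adjusted p = 0.0134). This call was lost without Rh41 QC6352 replicate 2 (0.33, limma adjusted p = 0.0962) and without Rh41 DMSO replicate 2 (0.39, limma adjusted p = 0.0695). POLD3 measured 9.94, 9.81 and 9.80 in treated Rh41, against 9.52, 9.38 and 9.36 in DMSO (0.43 ± 0.10, n = 3 each, limma adjusted p = 0.00572). The remaining rises were E2F8 by 0.42, CDC25A by 0.41, CLSPN by 0.39, CDC6 by 0.32 and RFC5 by 0.29. Of these only CDC6 passed the test in all 6 fits that left out 1 array. RFC5 lost its call without DMSO replicate 1 or 3 or QC6352 replicate 1 or 3, and CDC25A without DMSO replicate 3 or QC6352 replicate 2. E2F8 lost it without DMSO replicate 2 or QC6352 replicate 2 or 3, and CLSPN without DMSO replicate 2 or QC6352 replicate 1 or 3. The 38 members that did not pass had log2 differences from -0.33 for GINS2 to 0.34 for ORC6. None of the 6 helicase activators, 4 nucleotide supply genes, 4 chromatin genes or 2 Okazaki fragment genes passed the limma test. At an unadjusted p under 0.05 there were 3, 0, 1 and 0, beside 5258 of all 17687 genes.

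Of the 38 further replication factors 9 rose and 5 fell in Rh41, and of the 30 further G1/S control genes 6 rose and 2 fell. RPA3 measured 5.55, 6.12 and 5.90 in QC6352, against 8.12, 7.96 and 7.96 in DMSO, a log2 difference of -2.16 ± 0.16 (n = 3 each, limma adjusted p = 1.97e-08). SAMHD1, which breaks down deoxynucleotides, rose by 1.38 (limma adjusted p = 1.74e-08). The treated values of RPA3 and the DMSO values of SAMHD1 lay below the brightest background control probe set of their arrays, so that the size of both differences is uncertain. LIN9, a subunit of the DREAM and MMB complexes that bind cell cycle promoters, rose by 0.98 (limma adjusted p = 2.14e-05).

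The 2 cell lines, whose arrays are separate, shared 12 member calls of the same direction: MCM2, MCM5, MCM6 and MCM7 fell, and CDC6, RFC5, POLD3, CCNE2, CDC25A, E2F8, CLSPN and DTL rose. These were 38.7% of the 31 calls in Rh30 and 92.3% of the 13 calls in Rh41. Over all genes 2082 calls had the same direction, 32.4% of the 6427 in Rh30 and 59.8% of the 3479 in Rh41. No member passed the test in opposite directions with the signals as deposited. With quantile normalization CHAF1A did, higher in Rh30 (0.79, limma adjusted p = 4.18e-07) and lower in Rh41 (-0.25, limma adjusted p = 0.0428). By sample name no member was called in both lines. Over the 51 members the 2 sets of log2 differences had a Pearson correlation of 0.69 and a Spearman correlation of 0.68, against 0.53 and 0.43 over all 17687 genes. With Rh30 grouped by sample name these were 0.10 and 0.05 over the members and -0.02 and -0.01 over all genes. The genes share arrays, so these correlations describe the lists and carry no test.

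**Figure D3:**
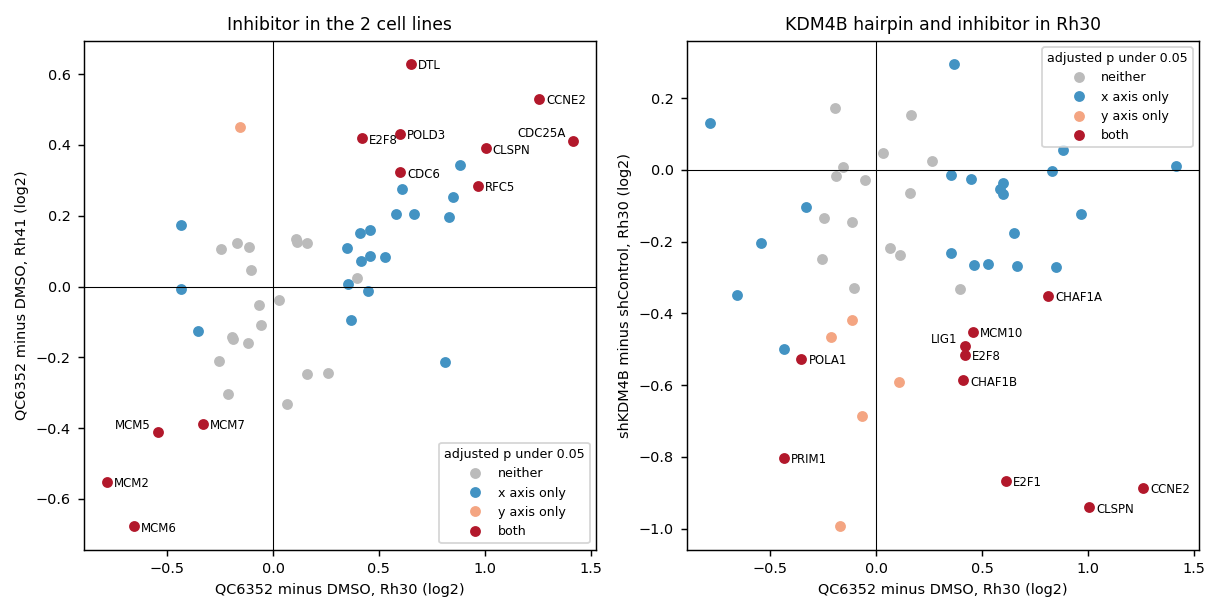
Log2 difference of each of the 51 members (points) under QC6352 in Rh30 on both horizontal axes, against QC6352 in Rh41 (left) and the KDM4B hairpin (right) on the vertical axes, with the 12 and 10 members past the threshold in both comparisons named. On the left they lie at the lower left and the upper right, and on the right 8 of 10 lie at the lower right.

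The responses differed in size. In the test of the difference, QC6352 response in Rh41 minus that in Rh30, 15 members passed, 14 of them lower and 1 higher, where 20% of all genes passed, 9.45% lower and 10.5% higher. The median over the members was -0.17 and over all genes -0.03. CHAF1A differed most, by -1.03 ± 0.12 (n = 3 in each of 4 groups, limma adjusted p = 1.04e-05): it measured 8.49, 8.58 and 8.60 in QC6352 and 8.79, 8.75 and 8.77 in DMSO in Rh41. In Rh30 it measured 9.90, 9.74 and 9.78 in QC6352, against 9.01, 8.99 and 8.98 in DMSO. CHAF1A thus rose in Rh30, while its log2 difference of -0.21 in Rh41 did not pass the test.

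CDC25A measured 8.58, 8.84 and 8.66 in treated Rh41, against 8.36, 8.39 and 8.10 in its DMSO arrays, and its difference between responses was -1.003 ± 0.15 (n = 3 in each of 4 groups, limma adjusted p = 8.42e-05). For CCNE2 the difference was -0.73 ± 0.18 (limma adjusted p = 0.00817), and for RFC5 it was -0.68 ± 0.11 (limma adjusted p = 0.000277). CDC25A, CCNE2 and RFC5 rose in both lines, less in Rh41. PRIM2, at 0.61 ± 0.17 (limma adjusted p = 0.0188), was the only member to pass the test with a higher response in Rh41. Its values on the treated Rh30 arrays lay below the brightest background control probe set, so that the size of this difference is uncertain. Its call was lost without Rh30 QC6352 replicate 1 (0.50), Rh41 DMSO replicate 2 (0.55) or Rh41 QC6352 replicate 2 (0.48).

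No MCM2 to MCM7 subunit passed this test. Their differences lay between -0.07 and 0.23, and the 95% interval for MCM6 was -0.35 to 0.31. By sample name 1 member passed the test of the difference, MCM6, and none of the 15 did. Among the further genes the largest differences were RBL2, a pocket protein that represses E2F targets, at 1.03, DNA2 at 1.02 and CDKN1B, which encodes the CDK inhibitor p27, at -0.98. The size of the DNA2 difference is uncertain for the reason given for Rh30. Of the 38 further replication factors 6 were higher and 6 lower, and of the 30 further G1/S control genes 6 were higher and 5 lower.

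The KDM4B hairpin and QC6352 in Rh30 share no arrays and moved several members in opposite directions. MCM10, LIG1, CHAF1A, CHAF1B, CCNE2, E2F1, E2F8 and CLSPN fell with the hairpin and rose with QC6352. POLA1 and PRIM1 fell in both. The same-direction calls were 13.3% of the 15 hairpin calls and 6.45% of the 31 QC6352 calls, against 39.5% of 2047 and 12.6% of 6427 over all genes. The opposite calls were 53.3% and 25.8%, against 20.7% and 6.58% over all genes. By sample name none of the 31 QC6352 calls and 6 of the hairpin calls were left, and no member was called in both. Over the 51 members the 2 sets of log2 differences had a Pearson correlation of -0.04 and a Spearman correlation of 0.01, against 0.18 and 0.13 over all genes, again as a description. In Rh41 the members that fell with the hairpin and rose with QC6352 were CCNE2, E2F8 and CLSPN. They were 20% of the 15 hairpin calls and 23.1% of the 13 Rh41 calls, against 13.6% and 7.99% over all genes. No member was called in the same direction in these 2 comparisons, against 19.2% and 11.3% over all genes. The comparisons differ in duration, 72 h and 48 h, and in what each agent acts on.

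Of the opposite members 3 kept their hairpin call whichever array was left out: CLSPN, CCNE2 and E2F1. CHAF1B lost it without shKDM4B replicate 1 or shControl replicate 2, and E2F8 without shKDM4B replicate 1 or 2 or shControl replicate 1. MCM10 and LIG1 lost it without any 1 of the 4 hairpin experiment arrays. CHAF1A lost it without shKDM4B replicate 1 or either shControl replicate. On the QC6352 side of Rh30, E2F8 lost its call without QC6352 replicate 1, and LIG1 without QC6352 replicate 1 or 3 or DMSO replicate 1. By title CCNE2 was past the threshold in all 4 comparisons of agent against control. It was lower with the KDM4B hairpin and higher with the KDM4C siRNA and with QC6352 in Rh30 and Rh41. The limits given above for the hairpin and the siRNA apply. By sample name CCNE2 passed in none of them (limma adjusted p = 0.134, 0.55, 0.259 and 0.23, in that order).

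In DMSO the 2 lines differed in 37 of 51 members, 19 higher and 18 lower in Rh41. Over all genes 57.6% passed the test, 40.7% higher and 16.8% lower, and the median of all genes was 0.19 higher in Rh41. The median of the members was 0.03, or -0.16 relative to all genes. With each array centred on its median the split was 13 higher and 24 lower, and with quantile normalization 15 higher and 26 lower. Cell line and the scaling of the arrays cannot be told apart here. By sample name 35 members passed, 24 higher and 11 lower. Of the 37 calls 28 were kept, 9 were lost and 7 were new, and CDT1 and E2F8 among the lost ones turned sign.

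CCNE1 had the largest difference, with 10.80, 10.80 and 10.79 in Rh41, against 9.14, 9.22 and 9.14 in Rh30 (1.63 ± 0.09 on the log2 scale, or 1.44 relative to the median of all genes, n = 3 each, limma adjusted p = 9.22e-12). SLBP measured 9.90, 9.71 and 9.82 in Rh41 DMSO, against 8.65, 8.37 and 8.14 in Rh30 DMSO. MCM6 measured 10.12, 9.98 and 10.06 in Rh41, against 8.74, 8.86 and 8.72 in Rh30. The clamp loader subunit RFC3 measured 10.88, 11.01 and 10.95 in Rh41, against 9.78, 9.66 and 9.65 in Rh30. Relative to the median of all genes these 3 were 1.23, 1.08 and 1.06 higher in Rh41, and no arrays overlapped.

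At the other end, CHAF1B measured 7.97, 8.15 and 8.08 in Rh41 DMSO, against 9.26, 9.59 and 9.54 in Rh30 DMSO. POLA1 measured 8.90, 8.87 and 8.89 in Rh41, against 10.04, 10.08 and 10.03 in Rh30. E2F2 measured 8.08, 8.19 and 8.10 in Rh41, against 9.31, 9.22 and 9.21 in Rh30. TK1 measured 9.88, 9.88 and 9.83 in Rh41, against 10.88, 10.98 and 11.06 in Rh30. All 4 were lower in Rh41, at -1.39, -1.16, -1.12 and -1.11 on the log2 scale, without overlap between the lines. Relative to the median of all genes they were at -1.58, -1.35, -1.31 and -1.31.

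The helicase subunits differed among themselves between the lines. MCM4 and MCM6 were higher in Rh41, by 0.83 and 1.27, MCM3, MCM5 and MCM7 were lower, at -0.92, -0.64 and -0.34, and MCM2, at -0.16, did not pass the test. The E2F factors E2F1, E2F2 and E2F8 were all lower in Rh41, while both cyclins E were higher. The call of E2F8 was lost on leaving out any of the 6 arrays, as was that of CHAF1A, and by sample name those of E2F1, E2F8 and MCM7 were lost. The signs of all these MCM, E2F and cyclin E calls were the same after centring and after quantile normalization. Of the 38 further replication factors 22 were higher and 9 lower in Rh41, and of the 30 further G1/S control genes 13 were higher and 8 lower. SAMHD1, CDK4, the kinase that pairs with D cyclins, and CDKN1A had the largest of these differences, at -2.29, -1.97 and -1.86. The Rh41 values of SAMHD1 lay below the brightest background control probe set, so that its size is uncertain.

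**Figure D4:**
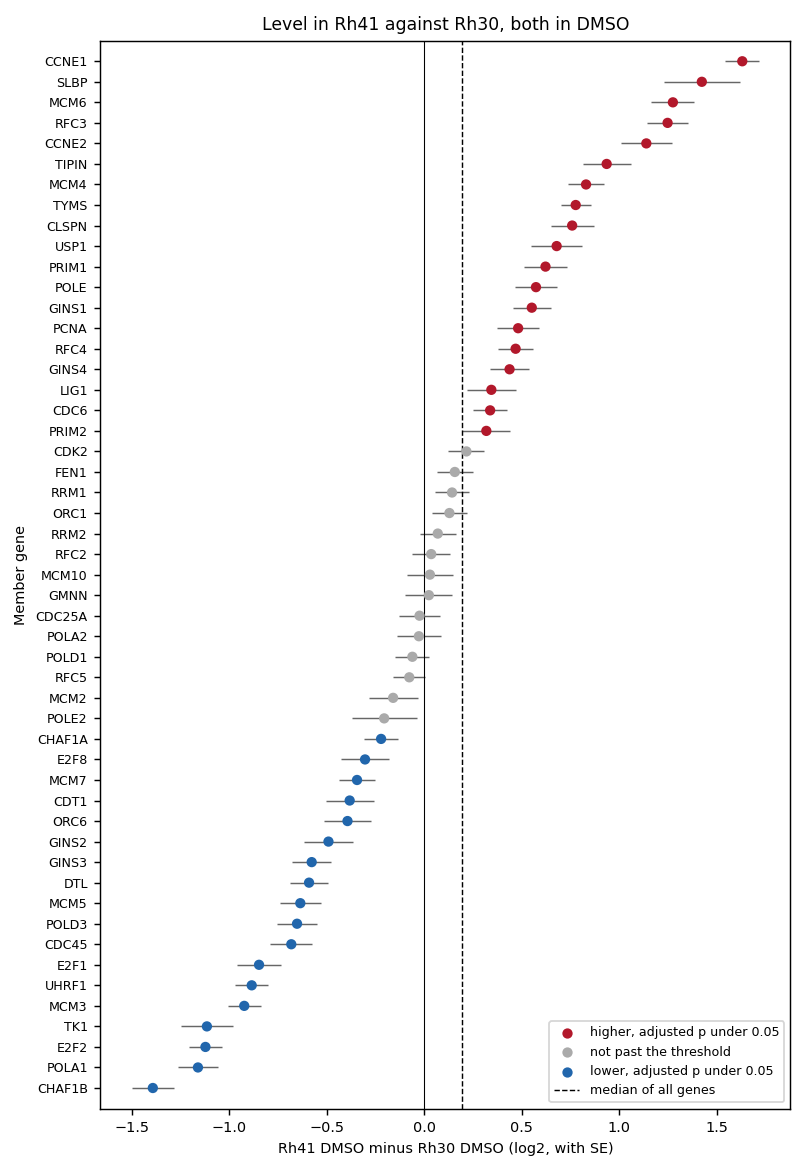
Log2 difference of each member between Rh41 and Rh30 in DMSO (points, horizontal axis) with its standard error (lines), ordered by size, with the median of all genes as a dashed line at 0.19. Members higher in Rh41 (red) run from PRIM2 to CCNE1 and members lower in Rh41 (blue) from CHAF1A to CHAF1B.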

How the data were processed

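Each of the 20 Clariom S arrays received material made from 125 ng of total RNA, per the labels' protocols. The authors deposited 1 log2 signal for each probe set and array, which was used unchanged and unfiltered. GCOS is named in the submitters' processing notes, while its version, the normalization and the genome build are not given in the sources. Of 24351 probe sets 17709 carry 1 gene symbol, and the other 6642, without a single symbol, were left out. The probe set with the highest mean stood for a gene, which left out 22 more. No column of another sample was present.

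Groups follow the titles. A model of 8 group means over all 20 arrays (12 residual degrees of freedom) was fitted to the 17687 genes by lmFit and eBayes of limma 3.58.1, run under R 4.3.3. Benjamini-Hochberg adjustment covered all these genes, and the threshold was 0.05. Each log2 difference is the treated or knockdown mean minus the control mean, or Rh41 minus Rh30. The script was tested on simulated data. The members and gene lists were chosen with earlier results of these data known. Members named with values on each array are the 4 largest rises and falls per comparison whose arrays do not overlap (or the 3 smallest p-values where fewer than 3 passed), with those shared or opposed between comparisons. Of other genes, the targets, MYOG, markers and up to 3 pathway genes per comparison are named. Other members were named as each role was accounted for. Alternatives were quantile normalization, centring, leaving out the lowest 40% of genes, eBayes with trend, only the arrays compared, a replicate block, groups by sample name and leaving out each array.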

Additional observations from a re-analysis of the deposited data

Results flagged for a closer look

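In 15 members the response to QC6352 differed between Rh41 and Rh30 in the limma test of the difference itself (n = 3 arrays in each of the 4 groups). The differences are given as the response in Rh41 minus that in Rh30, on the log2 scale, and rest on the groups by title. Among the G1/S drivers they were -1.003 for CDC25A, -0.73 for CCNE2, -0.44 for E2F2 and -0.38 for CDK2. Among the licensing and helicase genes they were -0.60 for GINS4, -0.54 for ORC6, -0.51 for CDT1 and -0.46 for ORC1. At the fork they were -0.68 for RFC5, -0.61 for CLSPN, -0.46 for PCNA, -0.46 for RFC2 and 0.61 for PRIM2, whose treated Rh30 values lay below the brightest background control probe set. For chromatin assembly and nucleotide supply they were -1.03 for CHAF1A and -0.63 for TK1.

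ORC1, GINS4, RFC5, CHAF1A, CCNE2, CDC25A, E2F2 and CLSPN stayed past the threshold whichever of the 12 arrays was left out. The calls of ORC6, CDT1, PCNA, RFC2, PRIM2, TK1 and CDK2 were each lost on leaving out at least 1 of them. For CHAF1A the 3 treated Rh41 arrays all lay below the Rh41 DMSO arrays, while the 3 treated Rh30 arrays all lay above the Rh30 DMSO arrays. No group holds 4 or more arrays, so single arrays were not tested as outliers.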

How the results depend on the processing

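Grouping Rh30 by sample name changed the results most. Member calls fell to 6 with the KDM4B hairpin, 0 with the KDM4C siRNA by limma, 1 and 2 under QC6352 in Rh30 and Rh41, and 1 for the difference of the responses. Over all genes this left 725, 0, 89, 1537 and 762, and among the other pathway genes 9, 0, 0, 13 and 5. Signs turned for 8 of the members called in Rh30, 7 of those called in the difference and 2 of those called between the lines. Among the members given on each array of that comparison they turned for CLSPN (-0.13), MCM2 (0.13), MCM6 (0.34) and PRIM1 (0.13) in Rh30, for RFC2 (0.34) and CHAF1A (0.32) under siKDM4C, and for CDC25A in the difference (0.40). The cause was not tested. The hairpin and Rh41 arrays stay in their groups there, and only the spread shared with the other arrays changes. In fits without the 10 conflicting arrays, chosen after seeing the data, 14 members passed with the hairpin and 15 in Rh41 under QC6352, with 13 of the 15 and all 13 original calls kept.

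The siRNA counts were the least stable. Against 1 member and 81 genes, 2 and 341 passed without the lowest 40% of genes and 3 and 438 with trend and robust, which also gave 3 other pathway genes, and 0 and 0 on the siRNA arrays alone, where each group has 2 arrays. With the hairpin arrays alone 7 members, 826 genes and 8 other pathway genes passed, against 15, 2047 and 24.

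The replicate numbers were not shown to pair the arrays. Same-numbered arrays deviated from their group means with correlations of -0.21 to 0.26, and in neither inhibitor experiment did every array correlate best with its own number. All hairpin arrays did and no siRNA array did. With 2 arrays a group the deviations mirror each other, so that this check cannot decide in those experiments. With the replicate block 9 members passed for the hairpin, 0 for the siRNA (19 of all genes), 30 in Rh30, 11 in Rh41, 10 for the difference and 35 between the lines.

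Leaving out 1 array gave 8 to 11 members for the hairpin, 0 to 9 for the siRNA, 29 to 30 in Rh30, 10 to 12 in Rh41, 10 to 13 for the difference and 32 to 34 between the lines. Over all genes the ranges were 1039 to 1557, 8 to 1789, 5767 to 6119, 2646 to 2776, 2880 to 3399 and 9317 to 9684. Among the other pathway genes they were 8 to 14, 0 to 13, 35 to 38, 17 to 20, 18 to 24 and 48 to 50. The lowest siRNA count of 8 was without siControl replicate 2 and the highest, 1789, without siKDM4C replicate 1. For the hairpin the lowest, 1039, was without shKDM4B replicate 1. Of 496 values of named members under the alternatives, 457 kept direction and side of the threshold, 28 lost the call, 4 gained one and 7 turned sign. No member has several probe sets, so the alternative of another probe set gave no separate value. The count of 2 or 3 arrays a group is the limit on precision.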
